A study of Homo sapiens with 6 samples.

Results

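Untreated A375 cells were divided into those that the authors' table of selected cells lists and those that it leaves out. A375 is a human melanoma line with the genotype BRAF-V600E, which keeps the MAPK growth pathway switched on. Members were untreated cells with under 20% of their unique molecular identifiers (UMIs, each counting 1 captured transcript molecule) from mitochondrial genes and with at most 6000 genes detected. Of 2011 untreated cells, 1920 met both limits, out of 8505 A375 cells and 19763 cells in the series. Of these 1920 cells, 1478 (77.0%) were not listed and 442 (23.0%) were listed, and they are called unlisted and listed cells here. The cells nearest to the limits had 19.0% mitochondrial UMIs and 5997 genes inside them, and 20.6% and 6015 genes outside them. All 91 cells beyond the limits were unlisted, 16 for their mitochondrial share and 75 for their gene number. How the authors chose the listed cells is not stated, but the deposited name of their table holds g1, the gap phase before DNA synthesis. If cell cycle genes were used for the choice, their ratios below describe that choice and support nothing by themselves.

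The series measured single-cell RNA in A375 cells and in PC9, a lung cancer line with the genotype label EGFR-del. The A375 populations were an untreated control and 8 populations adapted by stepwise escalation to 30, 60, 125, 250 and 500 nM and 1, 2 and 4 µM dabrafenib, a BRAF inhibitor. PC9 cells were likewise untreated or adapted to the EGFR inhibitor osimertinib, and their pool held a further population labelled P1.2 that is not compared here. Each population was 1 culture, and all A375 populations were tagged, pooled and sequenced together in 2 runs, so no test between conditions is possible and intervals in parentheses are 95% exact binomial intervals that cover counting error only.

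A dividing cell duplicates its DNA in S phase, prepares for division in G2 phase and divides in M phase, and each step has its own set of transcripts. Factors of the E2F family switch on replication genes when cyclin-dependent kinases (CDKs) inactivate the RB protein. Later, B-MYB and FOXM1 together with the MuvB complex switch on mitotic genes, while in G1 a related complex named DREAM holds both sets down through E2F sites and through a promoter element named CHR.

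Unlisted cells held 15711449 UMIs and listed cells 4239199. A level is given as counts per 1000000 UMIs (CPM) of the summed cells, and a difference as log2 of unlisted over listed cells after adding 1 CPM. The median unlisted cell had 9887.5 UMIs and 3939.5 genes, against 8829.5 UMIs and 3581.5 genes in listed cells, and the median mitochondrial share was 5.08% against 5.71%. Cells of over 2 times the joint median depth made up 4.74% of unlisted and 1.13% of listed cells. Each of the 8505 A375 barcodes occurred once in the table. Among melanoma markers, the transcription factors SOX10 (199 CPM in unlisted and 278 in listed cells) and MITF (70.3 and 80.9) and the calcium-binding proteins S100B (141 and 272) and S100A1 (62.2 and 97.7) were present, while the pigment proteins PMEL and MLANA stayed at or below 1.89 CPM. Markers of endothelial cells summed to 5.92 CPM in unlisted and 6.13 CPM in listed cells, those of fibroblasts to 16.8 and 23.6, of erythroid cells to 0.0636 and 0.236, and of epithelial cells to 23.3 and 20.3. The immune list summed to 752 and 1038 CPM. Of those sums CD74, the invariant chain of MHC class II, gave 740 and 1026 CPM, and the leukocyte marker PTPRC had 2 UMIs in unlisted and 0 in listed cells.

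Unlisted cells carried the 2 markers that were set for cycling cells. UBE2C, the ubiquitin-conjugating enzyme with which the anaphase-promoting complex marks mitotic proteins for destruction (chr20:45812576-45816957, plus strand, GRCh38), had 3493 UMIs in unlisted cells and 33 in listed cells. Its level was 222 CPM against 7.78 CPM, 28.6-fold higher (20.3 to 41.6) in unlisted cells. CLSPN encodes claspin, which links stalled replication forks to the checkpoint kinase CHEK1 (chr1:35720218-35769967, minus strand), and was 22.1-fold higher (14.8 to 34.7) at 125 CPM against 5.66 CPM. After each cell was thinned to 4000 UMIs, which left out 40 unlisted and 6 listed cells, a UMI of UBE2C was found in 36.4% of unlisted cells (33.9 to 38.9) and 2.98% of listed cells (1.60 to 5.04). For CLSPN the shares were 36.0% (33.5 to 38.6) and 1.83% (0.795 to 3.58). Without thinning they were 54.0% and 7.01% for UBE2C, and 61.2% and 5.20% for CLSPN. Of 1438 thinned unlisted cells, 185 had UMIs of both, 338 of UBE2C alone, 333 of CLSPN alone and 582 (40.5%) of neither. Of 436 thinned listed cells, 0 had both and 415 had neither, and a count of 0 allows up to 3 of 436 cells with UMIs of both at this depth, which does not limit the cells that express both. The shares in unlisted cells were read against the low shares in listed cells. UBE2C belongs to the common gene list that scores G2 and M phase, and CLSPN to the list that scores S phase. If the authors' choice used these lists, the low shares in listed cells follow from it and are no independent background.

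The promoters of 5 cell cycle genes are printed here to show where the sequence elements named above lie. CLSPN and E2F1 belong to the S-phase side of the cycle, and TOP2A, CDCA8 and PLK1 to the G2 and M-phase side. CLSPN is a marker. TOP2A and CDCA8 were taken for their high ratios among scoring genes whose promoters hold a CHR or an E2F match, so a match was fixed by that choice. HJURP and BUB1 were picked by the same rule and are not printed. HJURP has a CHR 111 bases before the start, and the CHR of BUB1 is the variant form and lies after the start. E2F1 and PLK1 were added after their values within unlisted cells were seen. Each sequence runs 5′ to 3′ on the gene's strand, from 250 bases before to 50 bases after the start, from RefSeq on GRCh38.p14. Capitals mark matches on either strand. A CHR was searched for as TTTGAA and in its variant form TTCGAA. The box that binds NF-Y was searched for as CCAAT, and an E2F site as TTTGGCGC, TTTCCCGC or TTTCGCGC. In CDCA8 a CHR and a CCAAT box overlap and form 1 capital run. The windows are chr1:35769929-35770228 (minus strand) for CLSPN, chr20:33686336-33686635 (minus) for E2F1, chr17:40417847-40418146 (minus) for TOP2A, chr1:37692266-37692565 (plus) for CDCA8 and chr16:23678639-23678938 (plus) for PLK1.
CLSPN: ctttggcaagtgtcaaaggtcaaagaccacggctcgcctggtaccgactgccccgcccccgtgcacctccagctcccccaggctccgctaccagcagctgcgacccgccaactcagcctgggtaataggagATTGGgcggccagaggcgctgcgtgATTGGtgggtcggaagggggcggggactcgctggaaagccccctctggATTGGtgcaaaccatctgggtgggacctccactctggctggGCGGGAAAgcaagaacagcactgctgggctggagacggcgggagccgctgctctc
E2F1: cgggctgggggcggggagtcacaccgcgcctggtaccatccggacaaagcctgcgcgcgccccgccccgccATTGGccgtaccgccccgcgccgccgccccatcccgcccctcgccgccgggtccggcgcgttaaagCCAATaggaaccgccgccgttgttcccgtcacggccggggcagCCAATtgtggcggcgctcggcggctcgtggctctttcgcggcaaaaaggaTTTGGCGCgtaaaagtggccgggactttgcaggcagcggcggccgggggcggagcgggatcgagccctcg
TOP2A: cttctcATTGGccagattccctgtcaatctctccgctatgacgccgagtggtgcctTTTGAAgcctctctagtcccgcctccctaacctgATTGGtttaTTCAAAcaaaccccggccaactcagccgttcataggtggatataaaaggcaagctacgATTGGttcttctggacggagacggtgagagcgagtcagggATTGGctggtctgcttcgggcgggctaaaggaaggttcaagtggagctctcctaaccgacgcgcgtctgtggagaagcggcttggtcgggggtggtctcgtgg
CDCA8: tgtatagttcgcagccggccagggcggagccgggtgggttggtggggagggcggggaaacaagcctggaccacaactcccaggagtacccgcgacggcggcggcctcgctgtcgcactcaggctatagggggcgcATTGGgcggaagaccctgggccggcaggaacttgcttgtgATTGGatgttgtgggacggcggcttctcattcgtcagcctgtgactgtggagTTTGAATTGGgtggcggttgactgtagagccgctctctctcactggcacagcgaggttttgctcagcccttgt
PLK1: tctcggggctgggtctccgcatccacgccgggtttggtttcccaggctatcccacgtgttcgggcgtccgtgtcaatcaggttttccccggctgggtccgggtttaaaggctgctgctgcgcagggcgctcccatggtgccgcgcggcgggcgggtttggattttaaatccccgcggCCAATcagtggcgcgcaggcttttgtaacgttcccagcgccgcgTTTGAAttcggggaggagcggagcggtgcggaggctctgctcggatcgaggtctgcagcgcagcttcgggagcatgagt
The CLSPN window holds 1 E2F site, 5 bases before the start, and the E2F1 window holds 1, 20 bases before it. Neither window holds a CHR. The CHR of CDCA8 begins 23 bases before the start and that of PLK1 29 bases before it, and TOP2A has 2 CHR matches, 194 and 151 bases before it. Over 7857 measured genes with a promoter in the table, 11.1% held a CHR, 37.6% a CCAAT box and 5.10% an E2F site. A CHR was present in 33 of 45 promoters of G2 and M-phase scoring genes (73.3%) and in 3 of 32 of S-phase scoring genes (9.38%). E2F sites showed the opposite order, with 50% of S-phase and 6.67% of G2 and M-phase scoring genes. A match is a run of letters and not a measured binding site.

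A gene counted as measured if the group in which it was higher gave 10 CPM and 20 UMIs or more, which 9710 genes did. Of these, 427 were at least 2-fold higher in unlisted cells (4.4%), and 51 were lower by that much or more (0.525%). All measured genes had a median log2 ratio of -0.00, and 93 genes were at least 8-fold higher while none was 8-fold lower. Phase scoring uses 2 common lists of genes, and 92 of the 427 were in them. Another 162 were in 12 lists of cell cycle genes outside the scoring lists, and 173 were in no cell cycle list. All 42 measured S-phase scoring genes were at least 2-fold higher in unlisted cells, with a median log2 ratio of 2.24. Of the 54 G2 and M-phase scoring genes 50 were, with a median of 3.21. Of 319 cell cycle genes outside these lists 268 were measured, of which 162 were at least 2-fold higher (60.4%) and none lower, with a median of 1.35. In the plot of levels most of these genes lie above the diagonal, while most other genes lie along it. Some cell cycle genes lie below it, among them 6 of 18 measured cyclin and CDK genes and 4 of 14 histone genes.

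**Figure D1:**
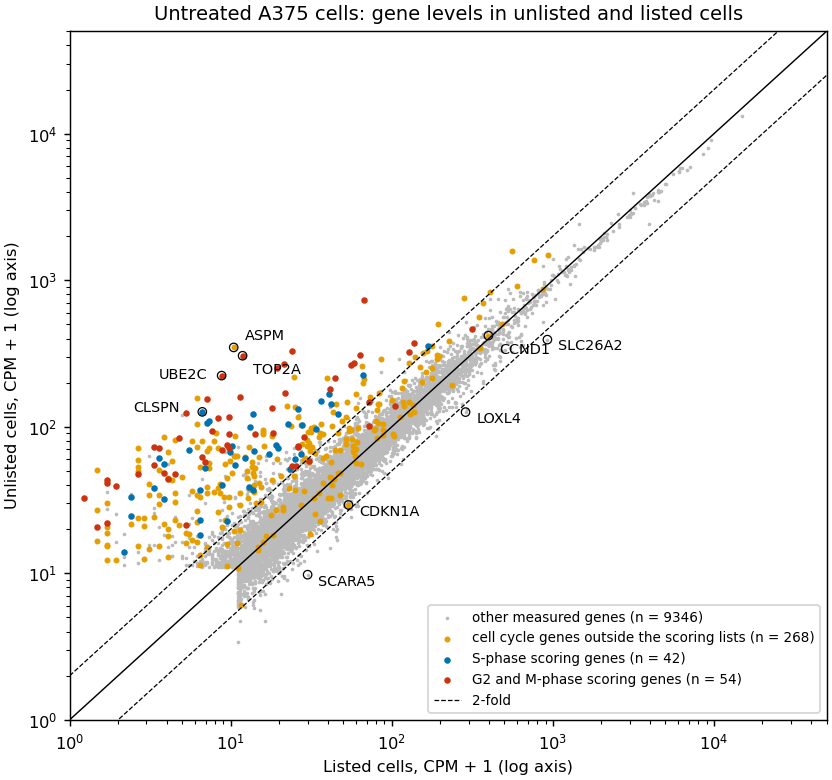
Level of each measured gene in listed cells (x axis, CPM + 1, log scale) and unlisted cells (y axis, CPM + 1, log scale) of the untreated A375 culture; 1 point is 1 gene, the solid line marks equal levels and the dashed lines a 2-fold difference. Scoring genes and other cell cycle genes spread upward, UBE2C lies at 222 against 7.78 CPM, CCND1 lies on the diagonal, and SLC26A2 and LOXL4 lie below the lower dashed line.

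The replication machinery was higher in unlisted cells. Of 46 measured replication genes outside the scoring list, 30 were at least 2-fold higher and none lower, with a median log2 ratio of 1.66. MCM10, which helps to load polymerases at origins, stood at 52.2 against 1.65 CPM, a ratio of 31.6 (15.3 to 78.9). The histone chaperone ASF1B stood at 49.6 against 2.59 CPM, and GINS1, a subunit of the replicative helicase, at 44.0 against 3.07 CPM. Nucleotide supply differed less, with 4 of 17 genes 2-fold higher and a median of 0.67. Among them were thymidine kinase TK1 (103 against 35.1 CPM), thymidylate kinase DTYMK (146 against 51.4) and deoxycytidine kinase DCK (19.7 against 7.78). RRM2B, the p53-induced ribonucleotide reductase subunit, lay on the other side with a log2 ratio of -0.73. RRM2, its S-phase counterpart and a scoring gene, was 17-fold higher (11.7 to 25.9).

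Repair and fork genes were 2-fold higher in 25 of 31 cases, with a median log2 ratio of 1.53. The DNA glycosylase NEIL3 had 457 UMIs in unlisted and 3 in listed cells, and the recombination factor RAD54L 246 and 2. BARD1, the partner of BRCA1, stood at 44.6 against 4.01 CPM. Among histone genes 14 of 57 were measured and 6 were 2-fold higher, with a median of 0.69. The linker histones HIST1H1B and HIST1H1A had log2 ratios of 3.05 and 2.86, and HIST1H4C, a histone H4 gene, stood at 258 against 63.9 CPM.

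Mitotic kinases had the highest median of the cell cycle lists outside the scoring lists. Among kinases and checkpoint proteins 18 of 20 were 2-fold higher, with a median log2 ratio of 2.54. SGO1, which guards sister chromatid cohesion, had a log2 ratio of 4.23, the checkpoint kinase BUB1B 4.15 and the mitotic kinase PLK1 3.80 (78.4 against 4.72 CPM). Spindle and cytokinesis genes were higher in 25 of 30 cases, with a median of 2.17. KIF18B, a motor that trims microtubule ends, had 786 UMIs in unlisted and 2 in listed cells, a ratio of 106 (29.3 to 877). ASPM, which acts at spindle poles, stood at 347 against 9.44 CPM, a ratio of 36.7 (27.0 to 51.5). Kinetochore genes were higher in 18 of 22 cases, with a median of 1.77, led by SPC25 of the NDC80 complex at 19.7 against 0.708 CPM. Among genes of chromosome structure 15 of 26 were higher, and the condensin subunit NCAPG stood at 157 against 5.19 CPM. HJURP, the chaperone of the centromeric histone CENPA, had 495 UMIs against 1, and TOP2A, the topoisomerase that untangles sister DNA, 4780 against 46. Of 21 ubiquitin genes 6 were higher, with a median of 0.36, among them separase (ESPL1, 3.17) and the anaphase-promoting complex inhibitor FBXO5 (2.94).

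The regulators of the cycle were divided. Cyclins A and B were higher in unlisted cells, CCNA2 35.5-fold (17.2 to 88.6) at 58.7 against 1.65 CPM and CCNB1 9.20-fold (7.55 to 11.3) at 219 against 23.8 CPM. Cyclin D1, which drives CDK4 and CDK6 early in G1, stood at 417 CPM in unlisted and 397 CPM in listed cells, a ratio of 1.05 (0.997 to 1.11). CDK6 stood at 343 and 352 CPM and CDK4 at 202 and 154 CPM. Cyclin E1 (CCNE1), the partner of CDK2 at the start of S phase, had a log2 ratio of 0.56, and CDK2 itself 1.33. The phosphatase CDC25A was higher at 2.44. In all, 7 of 18 measured cyclin and CDK genes were 2-fold higher and none lower, with a median of 0.49. Of 17 measured genes of the E2F, RB and MuvB list 6 were higher, with a median of 0.74. They were the activators E2F1 (2.97), MYBL2, which encodes B-MYB (3.10), and FOXM1 (2.59), the RB relative RBL1 (2.06), the MuvB subunit LIN9 (1.76) and the repressor E2F7 (1.51). RB1 itself stood at 95.3 and 78.1 CPM, E2F4 at 47.2 and 46.7 CPM and RBL2 at 39.3 and 41.3 CPM, and none of these 3 was near 2-fold.

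CDK inhibitors were not uniformly high in listed cells. CDKN1A, which encodes p21, stood at 52.8 CPM in listed and 28.3 CPM in unlisted cells, 1.87-fold (1.59 to 2.20) higher in listed cells and so under the 2-fold limit. CDKN1C, which encodes p57, stood at 34.7 and 21.9 CPM. CDKN1B, which encodes p27, stood at 36.3 and 40.5 CPM, a log2 ratio of 0.15. CDKN3, a phosphatase of CDKs listed with them, was 5.03-fold (3.97 to 6.47) higher in unlisted cells and CDKN2D, which encodes p19, 2.32-fold (1.84 to 2.95).

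**Figure D2:**
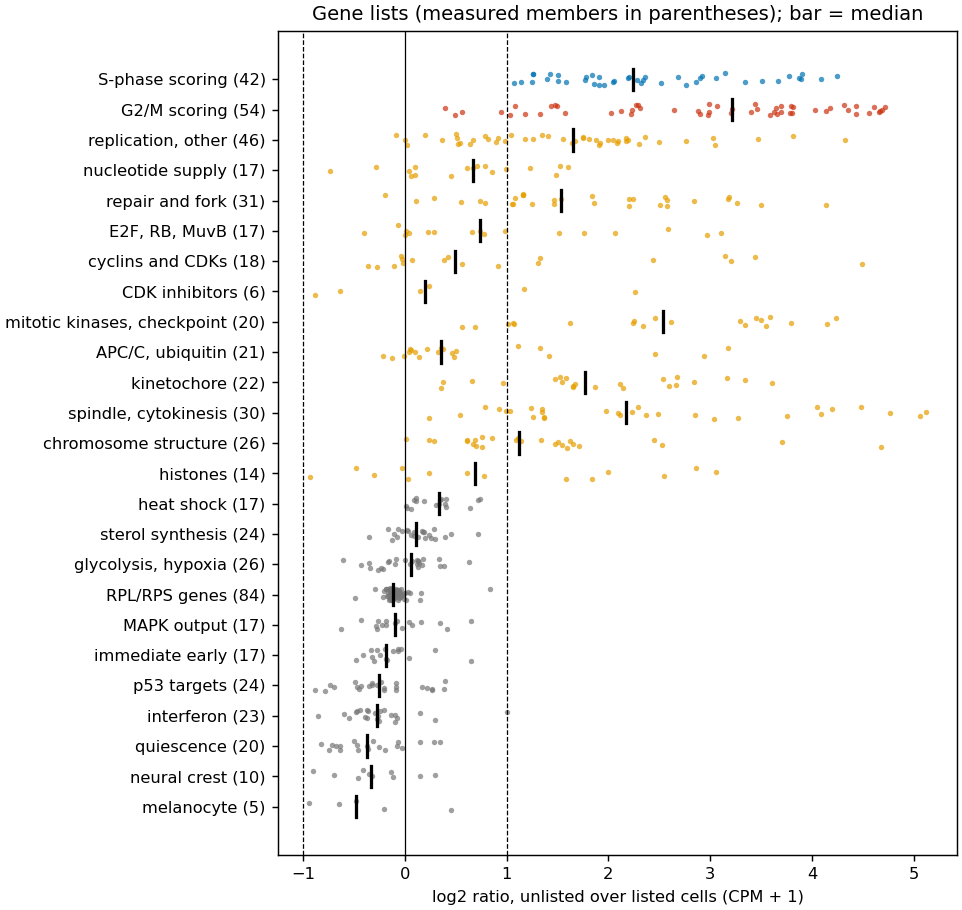
Log2 ratio of unlisted over listed untreated A375 cells (x axis, CPM + 1) for the measured genes of 25 lists; 1 point is 1 gene, black bars are list medians, dashed lines mark 2-fold and vertical positions within a list are spread at random. Medians run from 3.21 for G2 and M-phase scoring genes to -0.48 for melanocyte genes, and no list outside the cell cycle reaches a median of 1.

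Outside the cell cycle, none of the other 18 lists with over 1 measured gene had a member 2-fold lower, and OAS3 of the interferon list, at 16.6 against 7.78 CPM, was the only member 2-fold higher. Heat shock genes had positive ratios in 17 of 17 cases, with a median log2 ratio of 0.34, against -0.00 over all genes. HSP90AA1, the stress-inducible HSP90 chaperone, stood at 2423 CPM in unlisted and 1450 CPM in listed cells, and the constitutive chaperone HSPA8 at 865 and 525 CPM. Of 24 measured p53 targets 6 had a ratio above 0, and the median was -0.25. Genes known from quiescent cells had a ratio above 0 in 3 of 20 cases, with a median of -0.37, and KLF9, a glucocorticoid-induced repressor, stood at 129 in unlisted and 216 CPM in listed cells. The lineage genes followed the same order, with medians of -0.48 for 5 measured melanocyte genes and -0.34 for 10 neural crest genes. TFAP2B of the neural crest stood at 198 in unlisted and 370 CPM in listed cells. Output genes of the MAPK pathway had a median of -0.10, with FOSL1, an AP-1 factor, at 279 and 177 CPM and SPRY4, a feedback inhibitor, at 118 and 182 CPM. The serine synthesis enzyme PSAT1, at 148 against 74.5 CPM, came nearest to 2-fold with a log2 ratio of 0.98. Ribosomal protein genes (84 measured) had a median of -0.11, genes encoded in mitochondria -0.11 and nuclear respiratory genes -0.05.

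Genes of no cell cycle list that were at least 2-fold higher in unlisted cells were led by DIAPH3, a formin that builds actin filaments (119 against 4.01 CPM), FAM111B, a protease (550 UMIs against 3), SHCBP1, a midbody protein (62.5 against 2.12 CPM), and CDCA5, which encodes sororin, a stabiliser of cohesin (51.3 against 1.65 CPM). ESCO2, which acetylates cohesin, DNA polymerase theta (POLQ) and ERCC6L, a helicase of mitotic DNA bridges, followed with log2 ratios of 3.84, 3.78 and 3.70. The Polycomb methyltransferase EZH2 stood at 119 against 25.5 CPM. Several of these have known roles in division, so the lists do not hold every cell cycle gene. Over 9346 measured genes outside all cell cycle lists, 1.85% were 2-fold higher. Motifs were counted over all 335 genes outside the scoring lists with a 2-fold higher level, of which 162 were in cell cycle lists. Of the 265 with a promoter, 32.8% held a CHR and 16.2% an E2F site, against 11.1% and 5.10% of all measured genes. No share was computed for the 173 genes of no cell cycle list alone.

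The genes higher in listed cells were fewer and less extreme. The largest log2 ratio was -1.78, for CLEC18A at 3.76 CPM in unlisted and 15.3 CPM in listed cells. Among genes of at least 25 CPM, SCARA5, a scavenger receptor for ferritin, stood lowest in unlisted cells at 8.78 CPM against 29.0 CPM, 3.30-fold (2.57 to 4.24) higher in listed cells. The orphan nuclear receptor ESRRG stood at 13.9 against 40.1 CPM, the patched-domain protein PTCHD4 at 15.8 against 44.8 CPM, and the cytokine IL24 at 16.5 against 44.1 CPM. SLC26A2, a sulfate transporter, stood at 392 CPM in unlisted and 923 CPM in listed cells, 2.35-fold (2.26 to 2.45) higher in listed cells. After thinning it was found in 92.9% of listed cells (90.1 to 95.1) and 71.3% of unlisted cells (68.9 to 73.7). LOXL4, an enzyme that crosslinks collagen, stood at 125 against 286 CPM, and IGFBP5, which binds insulin-like growth factors, at 43.6 against 93.9 CPM. The interferon-induced GTPase GBP2, the matrix protein SPON2, the potassium channel KCNN3, the transporter SLCO6A1 and LEMD1 completed the lowest 10 of at least 25 CPM, with log2 ratios from -1.28 to -1.20.

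These 51 genes were long. Their median span in the GENCODE v29 annotation was 123 kb, against 39.4 kb over all measured genes and 32.4 kb for the 427 genes higher in unlisted cells. Of the 51, 29 (56.9%) exceeded 100 kb, against 23.7% of all measured genes. Among genes over 300 kb, 16 of 498 (3.21%) were 2-fold lower in unlisted cells, against 4 of 1538 (0.260%) of genes up to 10 kb. The part of gene length, and of the difference in UMIs per cell, in this result was not tested. In the promoters of 38 of these genes 13.2% held a CHR and none an E2F site, against 11.1% and 5.10% of all measured genes with a promoter. So few promoters cannot tell a share of 0 from one of 5.10%.

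Single cells showed how sharply the listing follows the scoring genes. At 4000 UMIs the 2 scoring lists together took a median of 1.05% of UMIs in unlisted and 0.225% in listed cells. No listed cell reached the unlisted median, and 9 of 1438 unlisted cells (0.626%) lay at or below the listed median. The groups did overlap, since 246 unlisted cells (17.1%) lay at or below the highest listed cell at 0.600%. Cell cycle genes outside the scoring lists took a median of 3.15% in unlisted and 1.575% in listed cells. On that measure, too, no listed cell reached the unlisted median, and 27 unlisted cells (1.88%) lay at or below the listed median. The overlap was wider here, since 449 unlisted cells (31.2%) lay at or below the highest listed cell at 2.75%. Unlisted cells thus held more cell cycle transcripts at the median, while 17.1% of them on the first measure and 31.2% on the second lay within the range of listed cells. Listed cells had the low S, G2 and M-phase transcripts that the name G1-like stands for, while G1 cells and arrested cells cannot be told apart from these values.

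**Figure D3:**
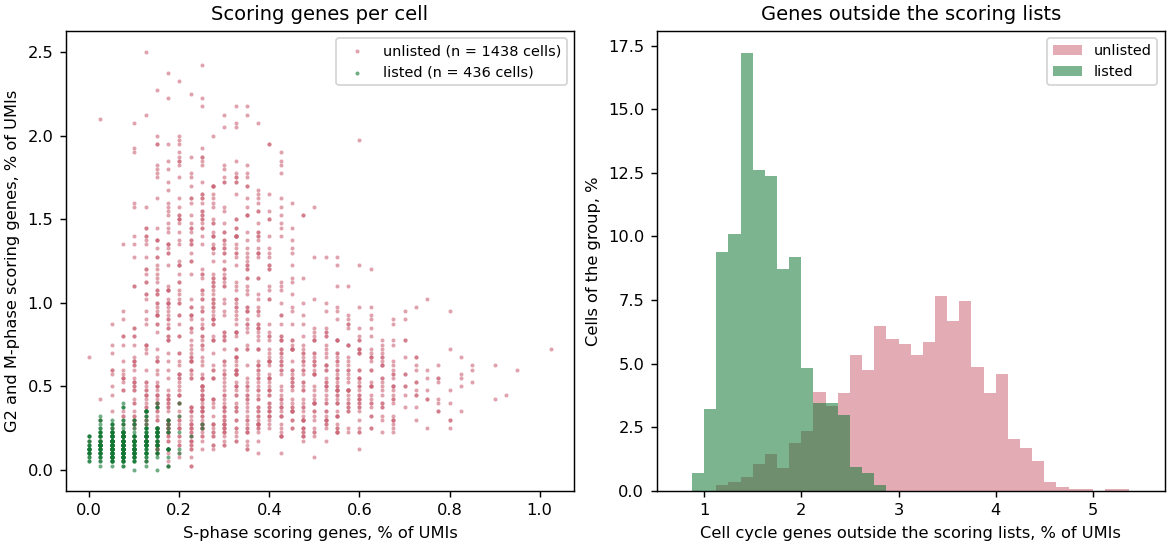
Left, share of a cell's UMIs from S-phase scoring genes (x axis, percent) and from G2 and M-phase scoring genes (y axis, percent), 1 point per untreated A375 cell thinned to 4000 UMIs, with points of equal value overlying each other. Listed cells gather at the lower left, up to 0.600% for both lists together, and unlisted cells spread along both axes. Right, histograms of the share from other cell cycle genes (x axis, percent of UMIs; y axis, percent of the cells of each group), with medians of 1.575% in listed and 3.15% in unlisted cells.

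Unlisted cells were also divided among themselves by their scoring genes. The 1478 cells were ranked from high S-phase to high G2 and M-phase scoring shares and cut into 3 groups of 493, 493 and 492 cells, called S-leaning, middle and G2/M-leaning. These are ranges of a score and not cell types, and 134 and 99 cells lay within 0.1 score units of the first and the second cut. Median S-phase shares were 0.517%, 0.264% and 0.245%, and median G2 and M-phase shares 0.436%, 0.472% and 1.27%. Of 9688 measured genes outside the scoring lists, 180 were at least 2-fold higher in S-leaning than in G2/M-leaning cells (1.86%) and 65 were higher by that much in G2/M-leaning cells (0.671%). Median UMIs per cell were 9696, 9820 and 10133.5.

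Among single genes picked with these levels in view, activators of S phase were highest in the S-leaning group. CCNE1 stood at 9.91 CPM in listed cells, 32.1 in S-leaning, 10.7 in middle and 3.53 in G2/M-leaning cells, so its G2/M-leaning level was below the listed one. Over all unlisted cells its log2 ratio to listed cells was 0.56. E2F1 stood at 3.54, 66.0, 26.2 and 13.4 CPM in the same order, and E2F2, its close relative, at 0, 17.3, 2.45 and 1.67 CPM. MCM10 stood at 1.65, 97.1, 36.3 and 26.0 CPM. PKMYT1, a kinase that inhibits CDK1, stood at 0.708, 26.3, 9.41 and 9.10 CPM, and FANCA, of the Fanconi anaemia repair pathway, at 9.67, 105, 46.9 and 38.5 CPM. Among 46 replication genes outside the scoring list 9 were 2-fold higher in S-leaning cells and none lower, and among 31 repair genes 8 and none. Of 18 genes of the E2F, RB and MuvB list 3 were higher and none lower, with a median log2 ratio of 0.39. Of 17 nucleotide supply genes none was 2-fold apart (median 0.07). Of 18 cyclin and CDK genes 3 were 2-fold higher in S-leaning and 5 in G2/M-leaning cells (median -0.05).

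Mitotic lists differed in how far they leaned to G2/M-leaning cells. Of 30 spindle genes 18 were 2-fold higher in G2/M-leaning cells and none in S-leaning cells, with a median log2 ratio of -1.14 for S-leaning over G2/M-leaning cells, against 0.03 over all genes. Of 20 mitotic kinase and checkpoint genes 6 were 2-fold higher in G2/M-leaning and 1 in S-leaning cells (median -0.66), and of 26 genes of chromosome structure 3 and none (-0.29). Of 22 kinetochore genes none was 2-fold higher in G2/M-leaning and 2 were in S-leaning cells (-0.16). The median level of each of these 4 lists was lower in middle than in S-leaning cells, for example 39.9 against 42.6 CPM for spindle genes and 40.6 against 53.5 CPM for mitotic kinases. The single genes that follow were picked with these levels in view, so they do not stand for their lists. PLK1 stood at 4.72 CPM in listed cells, 17.1 in S-leaning, 38.2 in middle and 175 in G2/M-leaning cells, a 10.2-fold (8.19 to 12.9) difference between the outer groups of unlisted cells. CCNB1 stood at 23.8, 53.4, 131 and 461 CPM, and ASPM at 9.44, 119, 159 and 744 CPM. The kinesin KIF20A of cytokinesis stood at 0.472, 8.97, 14.9 and 52.6 CPM, and DEPDC1 at 1.65, 22.7, 30.3 and 156 CPM. For 3 others the S-leaning level was not above that of listed cells. The helicase PIF1 stood at 10.4, 8.37, 11.3 and 64.1 CPM, the Aurora A activator BORA at 5.43, 4.98, 6.96 and 24.7 CPM, and ARL6IP1, a membrane protein, at 34.7, 30.5, 46.7 and 186 CPM. CDKN3 followed the same order at 17.0, 39.7, 59.1 and 154 CPM, so this gene of the inhibitor list was highest in the G2/M-leaning group. Cyclin D1 stood at 397, 498, 385 and 374 CPM, highest in S-leaning cells and less than 2-fold apart between any of these groups. Promoters were also compared for genes outside the scoring lists that were 2-fold higher in unlisted cells, whether or not a cell cycle list held them. A CHR was present in 20 of 30 that were 2-fold higher in G2/M-leaning cells and in 1 of 23 that were higher in S-leaning cells. E2F sites were present in 0 and 8 of them.

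Within unlisted cells, the 51 genes higher in listed cells were compared between the ends of the ranking. Of the 35 measured there, 5 were 2-fold higher in S-leaning than in G2/M-leaning cells and none the other way, with a median log2 ratio of 0.33. All 51 were at a higher level in listed cells than in each of the 3 groups, which their choice against the sum of these groups largely fixes. Listed cells were at least 2-fold above S-leaning cells for 36 of them, above middle cells for 23 and above G2/M-leaning cells for 48. SLC26A2 stood at 923 CPM in listed and at 404, 434 and 340 CPM in S-leaning, middle and G2/M-leaning cells, and LOXL4 at 286, 134, 132 and 109 CPM. IGFBP5 had a wider spread, at 93.9, 64.4, 47.8 and 20.1 CPM. CDKN1A stood at 52.8, 28.7, 34.1 and 22.1 CPM.

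**Figure D4:**
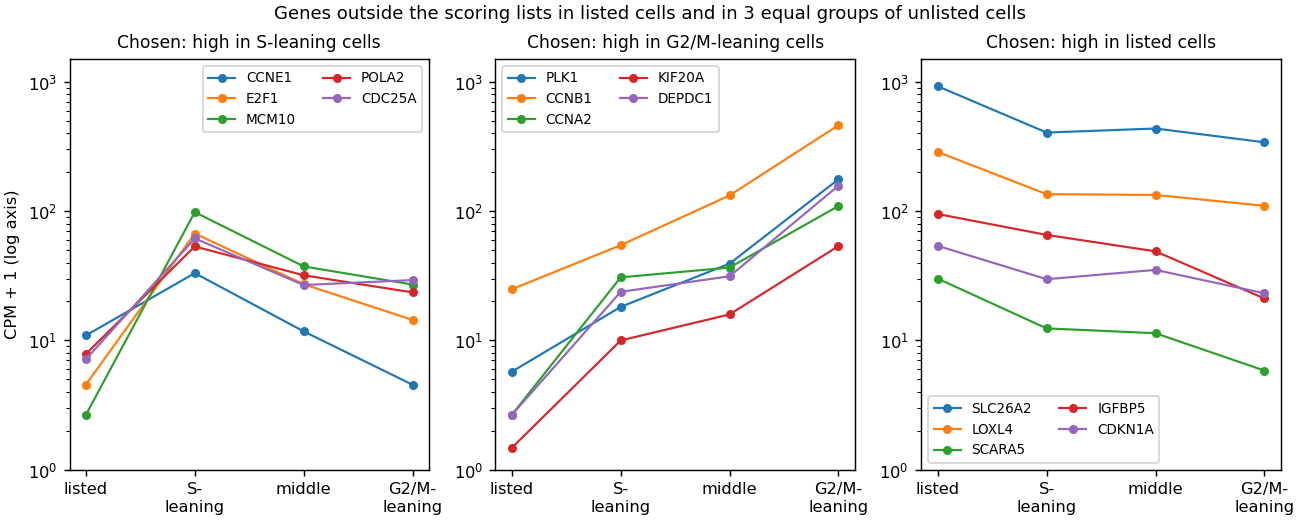
Level (y axis, CPM + 1, log scale) of 15 genes outside the scoring lists in listed cells and in the S-leaning, middle and G2/M-leaning groups of unlisted untreated A375 cells (x axis); lines join the 4 groups of 1 gene. The genes of each panel were chosen for the pattern that its title names: CCNE1 and E2F1 peak in S-leaning cells, PLK1 and CCNB1 in G2/M-leaning cells, and SLC26A2 and LOXL4 are highest in listed cells.

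The same division was made in the other populations, each a separate culture, with the same limits on cells. Listed cells were 23.0% of untreated A375 cells but between 65.5% (60 nM) and 88.4% (125 nM) of the adapted ones, and 12.9% of untreated PC9 cells. Unlisted cells numbered between 40 at 125 nM and 478 at 60 nM, and their median UMIs exceeded those of listed cells in all 8, by more than in untreated cells. At 4 µM the medians were 13726 and 9506 UMIs, and the part of this depth difference in the ratios was not tested. UBE2C had log2 ratios between 4.66 (30 nM) and 6.41 (250 nM) in the adapted populations, against 4.67 untreated, and CLSPN between 3.68 (2 µM) and 4.96 (250 nM), against 4.25. Untreated PC9 cells had 3.03 and 1.81, with CLSPN at 182 CPM in unlisted and 51.3 CPM in listed cells. Of the 427 genes higher in unlisted untreated cells, 79.7% of the 395 measured at 30 nM were at least 2-fold higher there, where 4.69% of all measured genes were. At 60 nM the share was 82.6% of 402 (3.89% of all genes), at 125 nM 76.3% of 139 (2.21%) and at 250 nM 91.8% of 389 (5.33%). At 500 nM it was 78.9% of 374 (4.45%), at 1 µM 75.9% of 377 (3.81%), at 2 µM 77.4% of 389 (4.48%) and at 4 µM 70.7% of 365 (3.69%). In untreated PC9 cells it was 47.9% of 386 (3.36%). In each adapted culture most of the measured genes of this set were again at least 2-fold higher in unlisted cells. The same table of the authors divides the cells of all A375 populations. If cell cycle genes were used for that choice, this repeat follows from it for such genes and is no independent support.

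Genes higher in listed untreated cells less often met the 2-fold limit in the adapted cultures, but most of those measured kept their direction. Ratios were below 0 for 39 of 43 genes at 30 nM, 48 of 49 at 60 nM, 38 of 39 at 125 nM and 45 of 48 at 250 nM. The counts were 32 of 38 at 500 nM, 24 of 28 at 1 µM, 25 of 29 at 2 µM and 24 of 30 at 4 µM. Their medians lay between -0.96 (30 nM) and -0.63 (4 µM), against -0.15 to 0.06 over all measured genes. Of the 51, 21 of the 43 measured at 30 nM were at least 2-fold higher in listed cells, where 3.24% of all genes were. The counts were 13 of 49 at 60 nM (1.24% of all genes), 13 of 39 at 125 nM (7.11%), 18 of 48 at 250 nM (2.04%) and 16 of 38 at 500 nM (2.23%). They were 10 of 28 at 1 µM (1.58%), 8 of 29 at 2 µM (1.57%), 6 of 30 at 4 µM (1.3%) and 3 of 5 in untreated PC9 cells (0.837%). None of the 51 was 2-fold higher in unlisted cells in any of these 9 populations. At 125 nM, with 40 unlisted cells, the median log2 ratio of all measured genes was -0.15. Genes higher in listed cells met the UMI minimum more easily there, so the share of 7.11% is affected by the filter. SLC26A2 had log2 ratios of -1.23 in untreated cells, -0.26, -0.45, -1.09 and -0.52 from 30 to 250 nM, and 0.01, 0.53, 0.85 and 0.26 from 500 nM to 4 µM. Its levels were lower at these 4 higher doses, between 80.9 and 147 CPM in either group. LOXL4 had -1.19 in untreated cells and 0.26, -0.24, -0.83, -0.53, 0.40, 0.26, 0.79 and 0.15 from 30 nM to 4 µM. CSMD3, a large transmembrane protein gene, kept its sign, with -1.52 in untreated cells and between -1.92 and -0.97 in the adapted populations. CDKN1A lay between -0.71 (4 µM) and 0.76 (125 nM), where unlisted cells held 31 UMIs. Cyclin D1 had a ratio near 0 in untreated cells (0.07) and was higher in unlisted cells in all 8 adapted populations, between 0.37 (125 nM) and 1.09 (30 nM), where it stood at 219 CPM in unlisted and 102 CPM in listed cells. No test of these differences between populations can be made with 1 culture each.

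**Figure D5:**
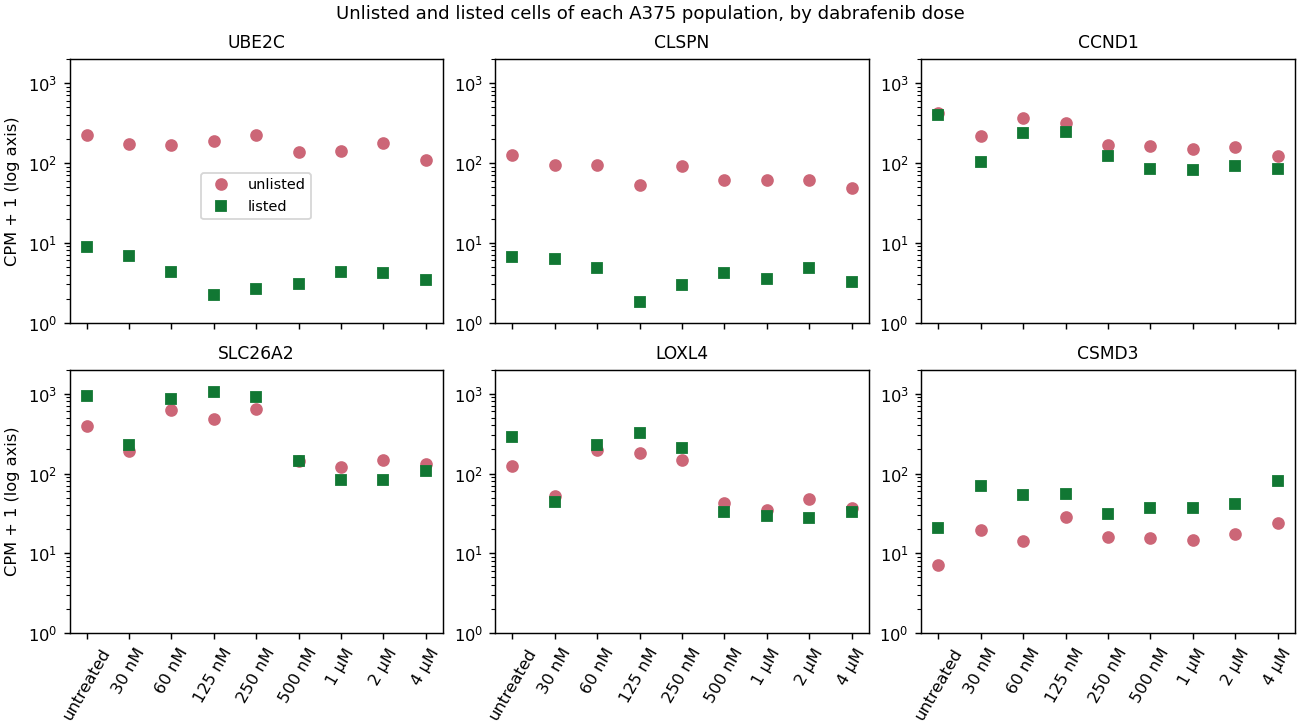
Levels (y axis, CPM + 1, log scale) of 6 genes in unlisted (circles) and listed (squares) cells of the untreated and the 8 adapted A375 populations (x axis, dabrafenib dose), 1 culture each. UBE2C and CLSPN are higher in unlisted cells at every dose, CCND1 differs least in untreated cells, and SLC26A2 is higher in listed cells up to 250 nM and not from 500 nM on.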

How the data were processed

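Gene expression libraries (3′ chemistry, CellPlex tags) were aligned and counted with Cell Ranger 7.0.0 on GRCh38, per the submitters' processing notes. The deposited A375 table holds a raw UMI count for every gene in every cell, per the labels. Per the file headers, the deposited cell table gives the UMI count, gene number, cluster and mitochondrial percent of each listed cell, and its counts equalled those of the count table for 5059 of 5059 cells. Which genes and cells were removed before deposit is not given in the sources used here. The population is the suffix of a cell's name, and the 2 runs cannot be told apart. No doublet caller was run, and cells over 2 times the median UMIs were left out as an alternative.

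UMIs were summed over cells, scaled to 1000000 and compared as log2(CPM + 1). A gene was measured at 10 CPM and 20 UMIs in the higher group. With 1 culture no test was made and no p-value is given. Named genes were UBE2C, CLSPN, the 10 highest and 10 lowest ratios at 25 CPM or more without clone-named, antisense and LINC genes, up to 4 members per list with the largest absolute ratio, and all measured cyclin, CDK inhibitor and E2F list members. Other genes named were chosen after their values were seen. Members and lists were chosen with earlier results of these data known. Phase-scoring lists were the common S and G2/M sets. Thinning used a fixed random seed.

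Calculations used Python 3.11.15, numpy 2.4.6, scipy 1.17.1, pandas 2.3.3 and, for trimmed mean (TMM) factors, edgeR 4.0.16 in R 4.3.3. The ratios were tested on simulated data. Gene spans were read from GENCODE v29 (99.6% of measured genes matched by symbol), and promoters from RefSeq by symbol (7857 of 9710 genes matched). Alternatives were other scalings, per-cell means, thinning, cell limits, pseudocount, level minimum, fold threshold and the cut of unlisted cells.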

Additional observations from a re-analysis of the deposited data

How the results depend on the processing

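No ratio of the 113 genes at least 2-fold apart among the 210 followed changed sign under the 7 alternatives that recompute ratios. The 2-fold calls were less stable. Of the 113, 79 stayed 2-fold apart with a pseudocount of 5 CPM, 103 with thinned cells and 112 with totals without mitochondrial and ribosomal protein genes, the lowest and highest counts being 79 and 112. The 427 genes higher in unlisted cells became 205 with a minimum of 50 CPM and 252 at 3-fold. The 51 lower genes became 79 when totals left out mitochondrial and ribosomal protein genes, 89 with cells thinned to 4000 UMIs, 19 with a pseudocount of 5 CPM, 11 with a minimum of 50 CPM and 3 at 3-fold. Of the 51, 43 remained with TMM factors (which moved the median of all genes to 0.03), 41 with thinned cells, 41 with per-cell means and 45 without cells over 2 times the median UMIs. With a pseudocount of 5 CPM the log2 ratios of UBE2C and CLSPN were 4.15 and 3.61, and the medians of G2 and M-phase scoring genes 2.59 and of replication genes 1.24. With a minimum of 50 CPM the medians were 1.11 for replication genes, 3.31 for mitotic kinases and 1.58 for histones, which had 1.53 with per-cell means. The share of cells with a UMI moved with depth. For UBE2C it was 7.01% of listed and 54.0% of unlisted cells as deposited, and 6.23% and 54.4% at 8000 UMIs. For CLSPN it was 5.20% and 61.2% as deposited, and 4.50% and 58.6% at 8000 UMIs. The share of unlisted cells at or below the listed median was 1.88% with cell cycle genes outside the scoring lists. The spindle median between the ends of the ranking was -0.89 when unlisted cells were cut into 2 groups. The causes of these shifts were not tested, beyond fewer genes passing a higher minimum or fold.

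No paired analysis was possible because each population is 1 culture and the sequencing runs of the pool cannot be told apart in the cell names. Intervals cover counting error only. A gene with 0 UMIs can have had up to 0.708 CPM in listed and 0.191 CPM in unlisted cells. With 442 listed cells, ratios of genes with few listed UMIs are imprecise, as for HJURP with 1 UMI.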

Other observations

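Listed untreated cells were spread over the authors' clusters, which were made on listed cells of all doses. Of 442 cells 343 (77.6%) were in cluster 0, 69 in cluster 1, 15 in cluster 3, 11 in cluster 2, 3 in cluster 6 and 1 in cluster 7.

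The serine and asparagine synthesis genes of the stress list lay apart from its chaperone. PSAT1, PHGDH and ASNS had log2 ratios of 0.98, 0.65 and 0.72 in favour of unlisted cells, while HSPA5, the chaperone BiP of the endoplasmic reticulum, stood at 401 CPM in unlisted and 587 CPM in listed cells (-0.55). In the sterol list EBP, an isomerase of cholesterol synthesis, had 0.72. Among ribosomal protein genes RPL39L, a paralog of RPL39 with which reads can be shared, had 0.84 while the list's median was -0.11. The mitochondrial assembly factors NDUFAF6 and NDUFAF4 had 0.86 and 0.61 in a list whose median was -0.05. All of these lie under the 2-fold limit.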
